A study of Homo sapiens with 12 samples.

Results

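The genes described here are 8 that encode AP-1 family transcription factors, out of 60707 genes in the count table: FOS, FOSB and FOSL2 of the FOS subfamily, JUN, JUNB and JUND of the JUN subfamily, and the related ATF3 and BATF. They were chosen by name, with earlier results of these data known, and all 8 passed the filter on low counts, which kept 17859 genes. Their RNA was measured in the B-cell line Raji, derived from a human Burkitt lymphoma, in a system where SMARCA4, the motor ATPase of SWI/SNF chromatin remodellers, can be degraded with auxin. The 4 groups were cells of the GFP-low gate given FX1, cells of the GFP-low gate given DMSO, cells of the GFP-high gate given FX1, and cells of the GFP-high gate given DMSO, each with 3 libraries taken at 24 h. FX1 is a compound that blocks BCL6, a repressor of transcription in germinal centre B cells, and DMSO is the vehicle. The labels give the genotype Smarca4+/+ to all 12 libraries and do not say what GFP reports, so the gates are named here only as gates. The cells are of 1 line, and the labels do not say whether replicates were grown separately, so p-values measure only the spread between libraries, and part of that spread may be technical.

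AP-1 is a dimer of basic leucine zipper proteins that binds a short palindromic DNA site. JUN proteins pair with each other or with FOS proteins, whereas FOS proteins need a JUN-type partner. FOS, FOSB and JUN are immediate early genes whose RNA is short-lived and follows the activity of growth factor, antigen receptor and stress kinases, while JUND is transcribed more steadily. BATF lacks the transactivation domain of FOS, pairs with JUN proteins and binds DNA with the interferon regulatory factors IRF4 and IRF8 in lymphocytes.

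Total counts per library lay between 20454028 and 42556661. Pairs of libraries within a group differed by more than counting noise, with a chi-square per degree of freedom of 1.67 to 1.94. That excess was small, with a common coefficient of variation between libraries of 1.67% in the edgeR fit. It may be technical and does not show that libraries came from separate cultures. Each library was counted as its own sample, with that limit. SMARCA4 RNA averaged 456 ± 4.04 CPM (read counts scaled to library size by TMM) in GFP-low FX1 libraries, 395 ± 4.99 in GFP-low DMSO, 388 ± 2.54 in GFP-high FX1 and 381 ± 3.77 in GFP-high DMSO (SD, n = 3 each). These RNA levels do not show whether SMARCA4 protein was degraded in any group. The 8 B-cell markers examined were all tested, and their summed level was between 3520 and 3540 CPM in GFP-low FX1, between 5040 and 5070 in GFP-low DMSO, between 3980 and 4010 in GFP-high FX1 and between 5860 and 5920 in GFP-high DMSO. Of 8 T and NK cell markers 4 were tested, CD8A was at 0, and their sum was between 2.62 and 3.16 CPM in GFP-low FX1, between 4.85 and 6.55 in GFP-low DMSO, between 3.83 and 4.06 in GFP-high FX1 and between 6.41 and 7.57 in GFP-high DMSO. Of 8 myeloid markers 3 were tested, S100A8 was at 0, and the sum was 6.02 to 6.46 CPM in GFP-low FX1 and at most 3.6 in the other groups. Of 7 epithelial and stromal markers 1 was tested, KRT19 and COL3A1 were at 0, and the sum was at most 17.3 CPM. Mitochondrial genes took 5.09% ± 0.0372 of counts in GFP-low FX1, 4.76% ± 0.0641 in GFP-low DMSO, 4.28% ± 0.0428 in GFP-high FX1 and 7.88% ± 0.0344 in GFP-high DMSO. Fold changes also ran with transcript GC content across 10430 genes, with Spearman's rho of 0.499 for FX1 in GFP-low cells, 0.293 for FX1 in GFP-high cells, 0.515 between gates under DMSO and 0.685 between gates under FX1, as a description. Values from a fit with a smooth trend on GC content and length removed are therefore given beside members that it moves. The part of marker levels and mitochondrial share in the results below was not tested.

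The 8 genes lie on 4 chromosomes of hg38, and 4 of their promoters are printed here because letters known from the control of immediate early genes occur in them at different places. FOS, with 3 exon blocks, is on the plus strand at chr14:75278826-75282230, and BATF is on the same strand at chr14:75522455-75546993. FOSB is on the plus strand at chr19:45467995-45475179. JUNB (chr19:12791486-12793315, plus strand) and JUND (chr19:18279694-18281622, minus strand) are single-exon genes. JUN is on the minus strand at chr1:58776845-58784048, ATF3 on the plus strand at chr1:212565334-212620777 and FOSL2 on the plus strand at chr2:28392448-28417317. All 8 had at least 1 promoter window in RefSeq (GRCh38.p14). The sequences below are the 250 bases before the RefSeq start of FOS (chr14:75278578-75278827, plus strand), FOSB (chr19:45467746-45467995, plus strand), JUN (chr1:58784048-58784297, minus strand) and JUND (chr19:18281623-18281872, minus strand), 5′ to 3′, with matches to the searched motifs in capitals.
FOS: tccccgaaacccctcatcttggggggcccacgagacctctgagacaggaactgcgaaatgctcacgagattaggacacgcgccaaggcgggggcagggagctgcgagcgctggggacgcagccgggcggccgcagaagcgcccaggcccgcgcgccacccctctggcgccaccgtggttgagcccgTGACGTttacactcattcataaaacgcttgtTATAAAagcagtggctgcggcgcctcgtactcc
FOSB: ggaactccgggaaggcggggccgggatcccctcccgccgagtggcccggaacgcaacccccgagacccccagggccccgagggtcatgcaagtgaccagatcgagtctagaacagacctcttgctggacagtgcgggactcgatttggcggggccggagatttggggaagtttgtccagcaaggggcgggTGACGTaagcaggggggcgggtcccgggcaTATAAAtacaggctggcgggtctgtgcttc
JUN: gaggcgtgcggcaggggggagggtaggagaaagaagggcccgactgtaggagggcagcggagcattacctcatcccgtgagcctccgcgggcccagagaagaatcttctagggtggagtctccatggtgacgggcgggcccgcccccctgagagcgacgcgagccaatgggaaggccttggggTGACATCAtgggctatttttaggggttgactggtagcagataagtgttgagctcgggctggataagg
JUND: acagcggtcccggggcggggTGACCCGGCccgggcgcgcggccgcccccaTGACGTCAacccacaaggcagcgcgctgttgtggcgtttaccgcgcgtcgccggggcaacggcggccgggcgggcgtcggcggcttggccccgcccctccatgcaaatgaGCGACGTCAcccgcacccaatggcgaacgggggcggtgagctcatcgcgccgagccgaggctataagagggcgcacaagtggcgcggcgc

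The motifs were searched on both strands and chosen with these sequences in view. The core of the cAMP response element, TGACGT, which CREB and ATF proteins bind, began 64 bases before the start in FOS, 60 in FOSB and 66 in FOSL2, and it occurred at 200, 198 and 87 bases in JUND, where the matches at 200 and 198 overlap on opposite strands. It was in 7.1% of 35116 promoter windows of the same length. TATAAA, the TATA box, lay 33 bases before the start in FOS, 30 in FOSB and 31 in JUNB, and in 1 window of ATF3 at 230, against 10.7% of windows. TGACATCA, the variant AP-1 site known from the JUN promoter, was found 67 bases before the JUN start and at 123 in another window of ATF3, against 2.38% of windows. The letters TGACNNNGC, the core of the antioxidant response element, matched JUND at 230 and, overlapping a TGACGT match, at 90, against 10.9% of windows. The AP-1 site TGANTCA (6.57% of windows), the STAT-type core TTCNNNGAA (6.57%) and the CArG box (1.16%) had no match in the windows of the 8 members, which says only that these letters are not in the 250 bases searched. BATF had none of the 7 motifs.

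FX1 was first compared with DMSO within each gate, the question the design text poses for the degron system. In GFP-low cells 6 of the 8 members passed the edgeR test, 4 lower and 2 higher with FX1, where 68.0% of all genes tested passed (33.7% higher and 34.3% lower). In GFP-high cells 6 of 8 passed, 5 lower and 1 higher, where 68.4% of all genes did (33.8% higher and 34.6% lower). The share of members called was near that background. Past a floor of 1.5-fold (glmTreat), 3 members were lower and 1 higher in GFP-low cells, where 20.2% of genes passed (9.18% higher and 11.0% lower). In GFP-high cells 4 were lower and 1 higher past that floor, where 20.6% of genes passed (8.14% higher and 12.4% lower). With the trend on GC and length removed, 8 members were called in GFP-low cells, against 65.3% of genes, and 7 in GFP-high cells, against 68.0%. The median change over the 8 was -0.67 on the log2 scale in GFP-low cells and -0.6 in GFP-high cells, against -0.01 over all genes in each. The groups did not overlap for 6 of 8 members in each gate, against 69.6% of genes in GFP-low cells and 70.2% in GFP-high cells.

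**Figure D1:**
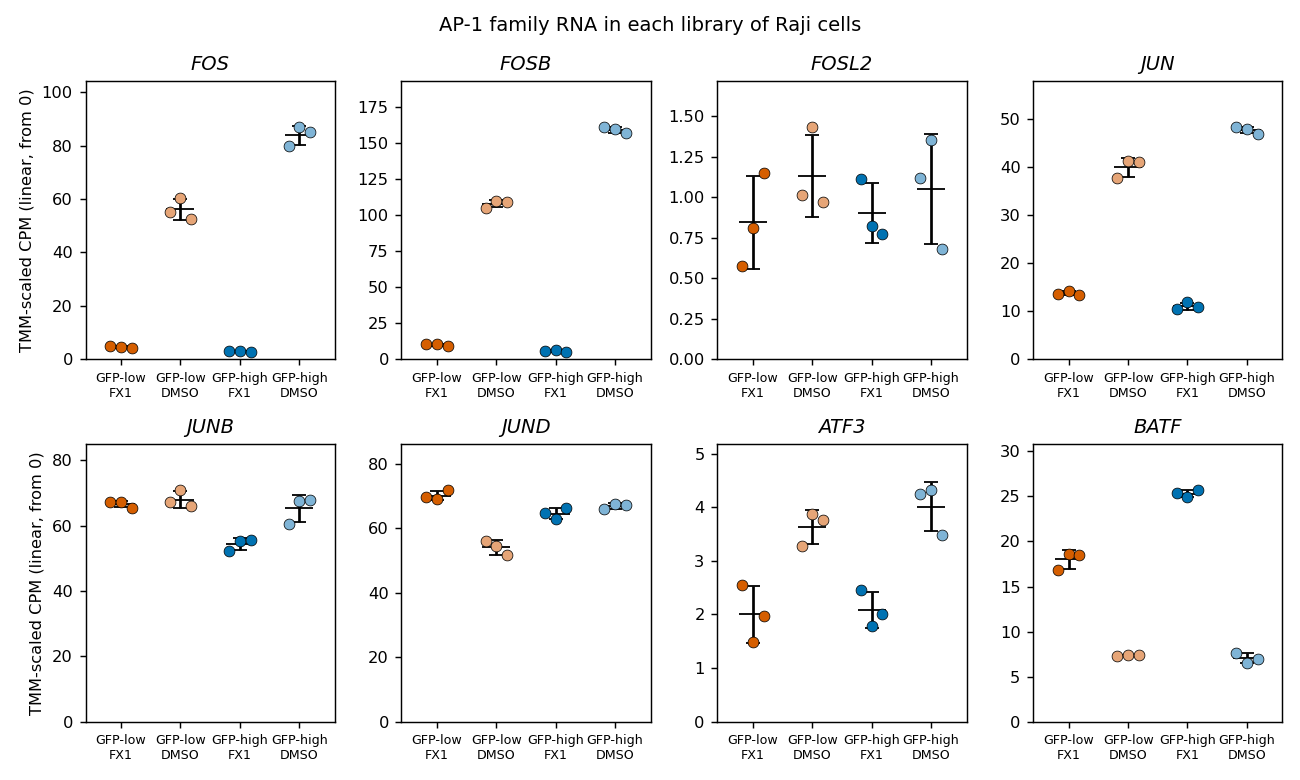
TMM-scaled CPM of each AP-1 member (vertical axes, linear, from 0) in each of the 12 libraries, with points for libraries and bars for the mean ± SD of 3. FOS, FOSB and JUN sit low in all FX1 libraries, BATF sits high in them, and FOSL2 lies at 1.43 CPM or below throughout.

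FOS, the founding member of its subfamily and a partner of JUN proteins, had 5.02, 4.44 and 3.99 CPM in GFP-low FX1 libraries, against 55.3, 60.3 and 52.7 CPM in GFP-low DMSO. In GFP-high cells it had 2.88, 3.14 and 2.81 CPM with FX1, against 79.8, 86.9 and 85.1 CPM with DMSO. Every FX1 library was below every DMSO library, and the low values still rested on 87 to 226 reads in GFP-low FX1 and 92 to 106 in GFP-high FX1. FOS fell by 3.61 ± 0.065 on the log2 scale in GFP-low cells (12.2-fold lower, edgeR adjusted p = 1.6e-136) and fell by 4.84 ± 0.066 in GFP-high cells (28.6-fold lower, edgeR adjusted p = 8.9e-163). Among the 17859 genes tested, 59 had a lower fold change than FOS in GFP-low cells and 34 in GFP-high cells.

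FOSB, whose protein pairs with JUN proteins as FOS does, had 10.7, 10.2 and 9.14 CPM in GFP-low FX1 libraries, against 105, 110 and 109 CPM in GFP-low DMSO. In GFP-high cells the libraries held 5.63, 6.42 and 5.15 CPM with FX1, against 161, 160 and 157 CPM with DMSO. The groups again did not overlap in either gate. FOSB fell by 3.41 ± 0.045 in GFP-low cells (10.6-fold lower, edgeR adjusted p = 7.3e-168) and fell by 4.8 ± 0.047 in GFP-high cells (27.9-fold lower, edgeR adjusted p = 5.3e-197), and 76 genes in GFP-low and 36 in GFP-high cells had a lower fold change. The ratio of FOSB to FOS reads was 2.24 ± 0.0992 in GFP-low FX1, 1.93 ± 0.124 in GFP-low DMSO, 1.94 ± 0.106 in GFP-high FX1 and 1.9 ± 0.0972 in GFP-high DMSO (SD, n = 3 each). The ratio in GFP-low FX1 was above those of the other 3 groups by more than their SDs, and those 3 lay within 1 SD of each other. FOSB overlaps ERCC1 on the opposite strand, with 0 shared exon bases.

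FOSL2, which encodes FRA-2, was barely present, at 16 to 45 reads per library. It had 0.577, 0.807 and 1.15 CPM in GFP-low FX1 libraries, against 1.01, 1.43 and 0.97 in GFP-low DMSO, and 1.11, 0.82 and 0.77 CPM in GFP-high FX1, against 1.12, 1.35 and 0.68 in GFP-high DMSO. The groups overlapped in both gates, with log2 differences of -0.52 ± 0.29 in GFP-low cells (edgeR adjusted p = 0.099) and -0.23 ± 0.28 in GFP-high cells (edgeR adjusted p = 0.48). In GFP-low cells it passed the test once the GC and length trend was removed (-0.73, edgeR adjusted p = 0.018) and without GFP-low FX1 replicate 3 (-0.76, edgeR adjusted p = 0.029). FOSL1, the remaining FOS subfamily gene, had 0 to 3 reads per library and was not tested.

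JUN, which encodes c-Jun and whose promoter window holds the TGACATCA match printed above, had 13.5, 14.1 and 13.4 CPM in GFP-low FX1 libraries, against 37.7, 41.1 and 40.9 CPM in GFP-low DMSO. In GFP-high cells it had 10.5, 11.9 and 10.8 CPM with FX1, against 48.2, 47.9 and 46.9 CPM with DMSO. FX1 libraries were below DMSO libraries throughout. JUN fell by 1.54 ± 0.057 on the log2 scale in GFP-low cells (2.92-fold lower, edgeR adjusted p = 3.8e-74) and fell by 2.12 ± 0.057 in GFP-high cells (4.34-fold lower, edgeR adjusted p = 2.8e-99). Its fold change was smaller in size than those of FOS and FOSB in both gates, and 780 genes in GFP-low cells and 521 in GFP-high cells had a lower one.

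JUNB, a JUN-type partner that is often a weaker activator than c-Jun, had 67.1, 67.1 and 65.5 CPM in GFP-low FX1 libraries, against 67.2, 70.9 and 66.0 CPM in GFP-low DMSO. In GFP-high cells it had 52.3, 55.3 and 55.5 CPM with FX1, against 60.4, 67.5 and 67.8 CPM with DMSO. The groups overlapped in GFP-low cells and did not in GFP-high cells. The log2 difference was -0.03 ± 0.035 in GFP-low cells (edgeR adjusted p = 0.43), and JUNB fell by 0.27 ± 0.036 in GFP-high cells (edgeR adjusted p = 7e-12), within the 1.5-fold floor. After removal of the GC and length trend the values were -0.45 (edgeR adjusted p = 5.8e-28) in GFP-low cells and -0.46 (edgeR adjusted p = 6.8e-28) in GFP-high cells. JUNB transcripts have a GC content of 64.9%, and the gene shares 259 exon bases with HOOK2 on the opposite strand, which had 7017 reads over the 12 libraries. With the strand setting unknown, reads there could belong to either gene, and HOOK2 averaged 20.8 CPM in GFP-low FX1, 19.8 in GFP-low DMSO, 16.7 in GFP-high FX1 and 22.0 in GFP-high DMSO.

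JUND, which is known for steadier expression than JUN, had 69.7, 69.1 and 71.9 CPM in GFP-low FX1 libraries, against 56.1, 54.6 and 51.7 CPM in GFP-low DMSO. In GFP-high cells it had 64.9, 62.8 and 66.2 CPM with FX1, against 66.1, 67.6 and 67.4 CPM with DMSO. The GFP-low groups did not overlap, while in GFP-high cells one FX1 library reached the lowest DMSO library. JUND rose by 0.37 ± 0.035 in GFP-low cells (1.29-fold higher, edgeR adjusted p = 6.1e-21), and the log2 difference was -0.05 ± 0.034 in GFP-high cells (edgeR adjusted p = 0.17). The rise depends on the processing, since with the trend removed JUND was lower with FX1 in GFP-low cells (-0.17, edgeR adjusted p = 1.5e-05) and in GFP-high cells (-0.33, edgeR adjusted p = 1.1e-17). Its transcripts have the highest GC content of the 8 members, at 69.7%, and the cause of the change in direction was not tested.

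ATF3, a stress-induced member that pairs with JUN proteins, had 2.55, 1.48 and 1.97 CPM in GFP-low FX1 libraries, against 3.27, 3.87 and 3.76 CPM in GFP-low DMSO. In GFP-high cells it had 2.45, 1.78 and 2.01 CPM with FX1, against 4.24, 4.32 and 3.48 CPM with DMSO. No FX1 library reached a DMSO library of its gate. ATF3 fell by 0.82 ± 0.17 in GFP-low cells (1.76-fold lower, edgeR adjusted p = 4.6e-06) and fell by 0.94 ± 0.17 in GFP-high cells (1.92-fold lower, edgeR adjusted p = 9.2e-08). It passed the 1.5-fold floor in GFP-high cells (glmTreat adjusted p = 0.021), while in GFP-low cells that test gave an adjusted p of 0.11.

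BATF moved the other way. This lymphoid member, which in mouse B cells is needed for antibody class switching, had 16.8, 18.6 and 18.5 CPM in GFP-low FX1 libraries, against 7.33, 7.42 and 7.44 CPM in GFP-low DMSO. In GFP-high cells it had 25.4, 24.9 and 25.7 CPM with FX1, against 7.63, 6.54 and 6.92 CPM with DMSO. The lowest FX1 library was above the highest DMSO library in both gates. BATF rose by 1.27 ± 0.079 in GFP-low cells (2.41-fold higher, edgeR adjusted p = 3.7e-39) and by 1.86 ± 0.077 in GFP-high cells (3.63-fold higher, edgeR adjusted p = 3.2e-65). Of all genes tested, 716 had a higher fold change in GFP-low cells and 298 in GFP-high cells.

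**Figure D2:**
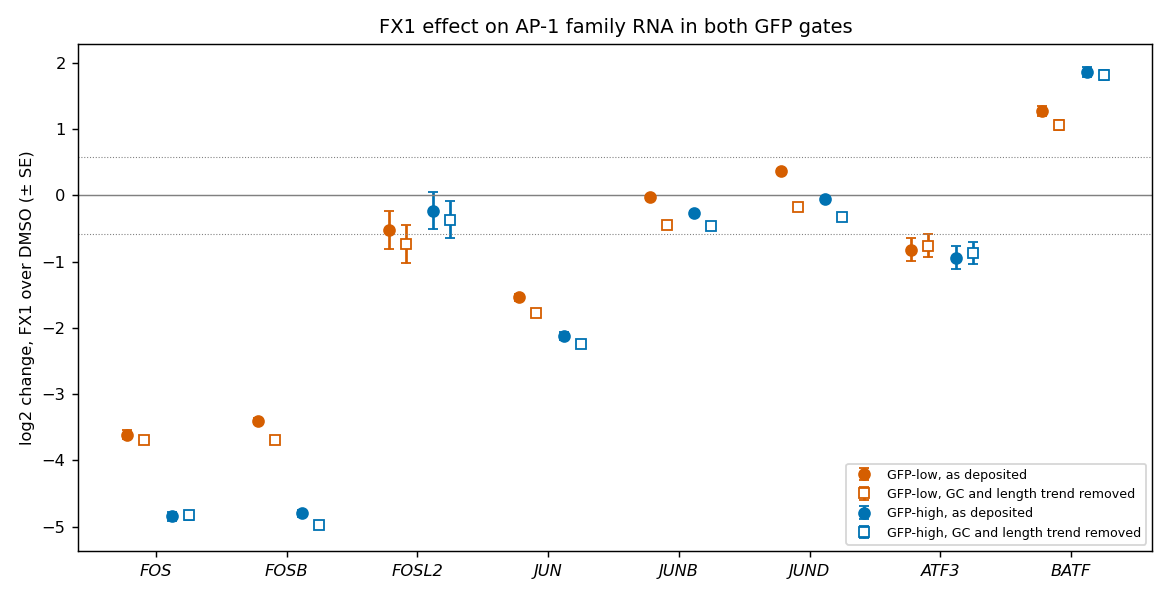
Log2 change of each AP-1 member, FX1 over DMSO, in GFP-low and GFP-high cells, as fitted to the deposited counts (filled) and with a GC and length trend removed (open). Bars are standard errors, dotted lines mark 1.5-fold, and JUND in GFP-low cells lies at 0.37 (filled) and at -0.17 (open).

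**Figure D3:**
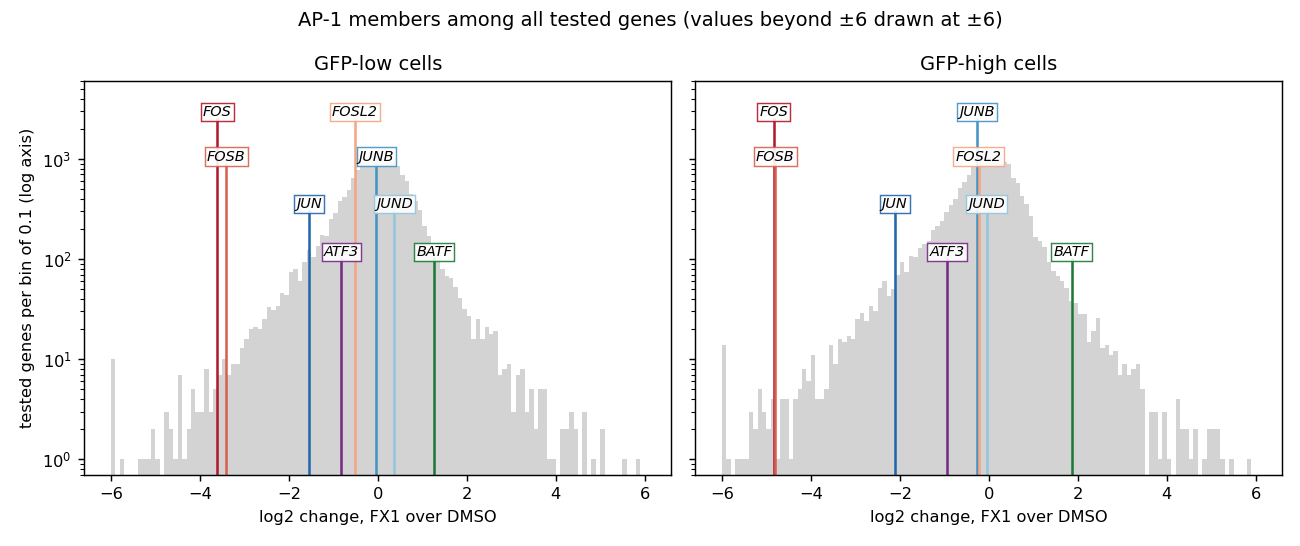
Distribution of log2 change, FX1 over DMSO, over the 17859 genes tested (bins of 0.1, log count axis), with the AP-1 members marked, in GFP-low cells (left) and GFP-high cells (right). FOS and FOSB lie in the far lower tail in both gates, BATF in the upper tail, and JUNB and JUND near the middle.

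Removal of the GC and length trend left the large changes in place. FOS then stood at -3.69 in GFP-low and -4.83 in GFP-high cells, FOSB at -3.69 in GFP-low and -4.97 in GFP-high cells, and JUN at -1.78 in GFP-low and -2.25 in GFP-high cells. ATF3 stood at -0.76 in GFP-low and -0.87 in GFP-high cells, and BATF at 1.06 in GFP-low and 1.82 in GFP-high cells.

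Levels were compared between members per kilobase of exon, since their lengths differ. That length combines all exons of a gene. For FOS (3186 bases) and FOSB (5553) it exceeds the longest transcript, of 2158 and 3775 bases. For ATF3 it is 4040 against 2103, for FOSL2 7162 against 6708 and for JUN 3624 against 3540. For JUNB it is 1830 against 1820, and for JUND 1929 against 1863. For BATF it is the smaller of the pair, at 928 against 980. The order under DMSO depends on this choice. With no scaling by length FOSB stood highest, at 108 CPM in GFP-low and 159 in GFP-high cells. JUNB then had 68.0 in GFP-low and 65.3 in GFP-high cells. In GFP-low DMSO libraries JUNB stood highest at 37.2 ± 1.39 CPM per kilobase, followed by JUND at 28.1 ± 1.17, FOSB at 19.4 ± 0.464, FOS at 17.6 ± 1.22, JUN at 11.0 ± 0.535 and BATF at 7.97 ± 0.0626. In GFP-high DMSO libraries the order was the same, with JUNB at 35.7 ± 2.28, JUND at 34.7 ± 0.443, FOSB at 28.7 ± 0.364, FOS at 26.3 ± 1.15, JUN at 13.2 ± 0.185 and BATF at 7.58 ± 0.597 (SD, n = 3 each). JUNB and JUND did not differ beyond their spread in GFP-high DMSO, and ATF3 and FOSL2 averaged below 1 CPM per kilobase of combined exons in all groups. For ATF3, at 0.994 in GFP-high DMSO, this too depends on the length used. With FX1 the order changed, and BATF came next after JUNB and JUND. In GFP-low FX1 libraries BATF stood at 19.4 ± 1.13, ahead of JUN at 3.77 ± 0.112, FOSB at 1.8 ± 0.141 and FOS at 1.41 ± 0.161. In GFP-high FX1 libraries BATF stood at 27.3 ± 0.429, ahead of JUN at 3.04 ± 0.207, FOSB at 1.03 ± 0.115 and FOS at 0.925 ± 0.0544, the last pair within their spread. JUNB and JUND were both at 36.4 in GFP-low FX1, and in GFP-high FX1 JUND was at 33.5 ± 0.874 and JUNB at 29.7 ± 0.984.

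The make-up of AP-1 RNA differed between treatments, and so did its sum. Summed over the 8 members, the level was 99.7 ± 0.851 CPM per kilobase in GFP-low FX1, 122 ± 3.56 in GFP-low DMSO, 96.2 ± 1.35 in GFP-high FX1 and 147 ± 2.93 in GFP-high DMSO. The FOS subfamily took 3.34% ± 0.284 of that sum in GFP-low FX1, against 30.4% ± 0.413 in GFP-low DMSO, and 2.17% ± 0.199 in GFP-high FX1, against 37.4% ± 0.289 in GFP-high DMSO. ATF3 and BATF together took 19.9% ± 0.85 in GFP-low FX1, against 7.25% ± 0.21 in GFP-low DMSO, and 28.9% ± 0.447 in GFP-high FX1, against 5.83% ± 0.54 in GFP-high DMSO (SD, n = 3 each). The JUN subfamily made up the rest, at 76.8% ± 0.619 in GFP-low FX1, 62.3% ± 0.413 in GFP-low DMSO, 68.9% ± 0.429 in GFP-high FX1 and 56.7% ± 0.683 in GFP-high DMSO, carried by JUNB and JUND. Which subfamily was largest under DMSO depends on the scaling. With no scaling by length the FOS subfamily took 48.8% in GFP-low DMSO and 56.1% in GFP-high DMSO. The JUN subfamily then took 47.9% in GFP-low DMSO and 41.4% in GFP-high DMSO. The ranges of each subfamily's share did not overlap between treatments, and an exact permutation test of 3 libraries against 3 cannot go below p = 0.1, so no test is given. In bulk RNA, fewer cells expressing a gene and less RNA per cell cannot be told apart.

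**Figure D4:**
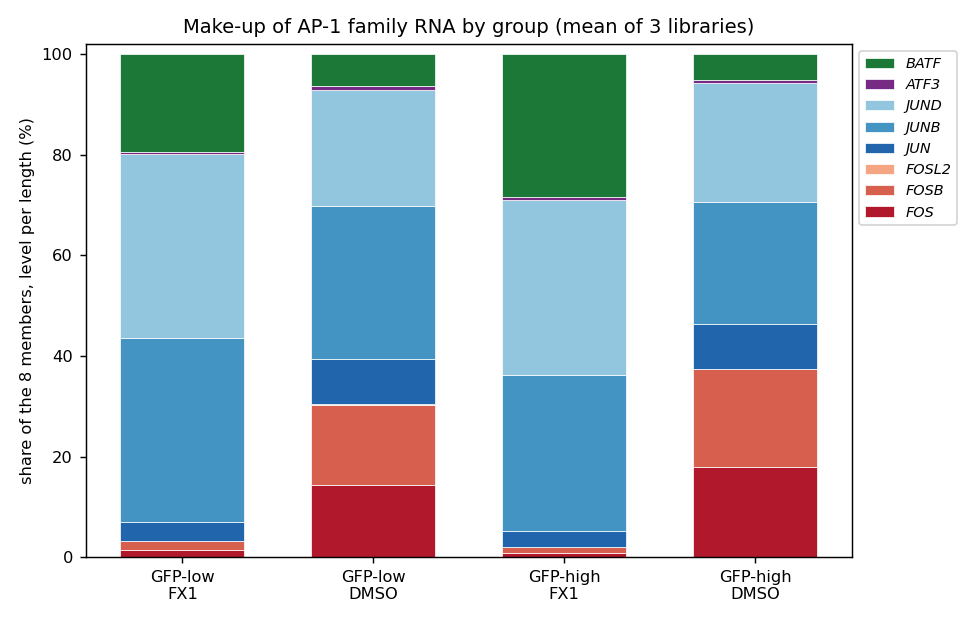
Share of each AP-1 member in the family's summed level per kilobase (stacked bars, percent, mean of 3 libraries per group). The red FOS and FOSB segments are thin in both FX1 groups and the green BATF segment wide; the FOS subfamily totals 3.34% in GFP-low FX1 and 2.17% in GFP-high FX1.

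The gates were compared next. Under DMSO, 4 of 8 members passed the test and all 4 were lower in GFP-low cells, where 46.1% of genes passed (21.7% higher and 24.4% lower). The log2 differences, GFP-low over GFP-high, were -0.58 ± 0.041 for FOS (edgeR adjusted p = 5.1e-32) and -0.56 ± 0.029 for FOSB (edgeR adjusted p = 3.2e-48). JUN stood at -0.26 ± 0.048 (edgeR adjusted p = 8.8e-07) and JUND at -0.31 ± 0.036 (edgeR adjusted p = 2.7e-14). None of these passed the 1.5-fold floor, where 1.11% of genes did. The values per library given above did not overlap between the gates for these 4 genes, against 51.6% of genes. JUNB differed by 0.06 ± 0.036 (edgeR adjusted p = 0.18) and, with the trend removed, by -0.15 (edgeR adjusted p = 0.00016). JUND stood at -0.61 (edgeR adjusted p = 1.1e-39) with the trend removed, a fit in which the 1.5-fold floor was not tested. FOSL2 (0.1 ± 0.28), ATF3 (-0.15 ± 0.16) and BATF (0.08 ± 0.097) did not pass. With the trend removed 5 members were called, against 40.8% of genes.

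Under FX1 the order of the gates turned for FOS, FOSB and JUN. Here 6 of 8 members passed, 5 higher and 1 lower in GFP-low cells, where 56.9% of genes passed (30.2% higher and 26.7% lower). FOS was higher by 0.65 ± 0.12 (edgeR adjusted p = 1.9e-07) and FOSB by 0.83 ± 0.078 (edgeR adjusted p = 2.3e-21), the one member past the 1.5-fold floor (glmTreat adjusted p = 0.0058; 4.08% of genes passed, 2.03% higher and 2.05% lower). JUN was higher by 0.31 ± 0.069 (edgeR adjusted p = 2.1e-05), a call lost with the trend removed (0.13, edgeR adjusted p = 0.099). BATF fell by 0.51 ± 0.062 in GFP-low relative to GFP-high cells (edgeR adjusted p = 1.2e-13). With the trend removed FOS stood at 0.55, FOSB at 0.63 and BATF at -0.86, all still called. The 1.5-fold floor was not tested in that fit. JUNB (0.3 ± 0.035) and JUND (0.12 ± 0.033) were also called higher, but with the trend removed both were lower, at -0.14 and -0.44. The JUND call was also lost without GFP-high DMSO replicate 2 (edgeR adjusted p = 0.052) and without replicate 3 of that group (edgeR adjusted p = 0.053). The gates did not overlap for 6 members, against 61.1% of genes, and with the trend removed 5 members were called, against 48.7% of genes.

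How far the FX1 effect differed between the 2 gates was tested as an interaction, GFP-low minus GFP-high. It passed for 6 of 8 members, 5 positive and 1 negative, where 31.3% of genes passed (14.8% positive and 16.5% negative). The fall of FOS was smaller in GFP-low cells by 1.23 ± 0.12 on the log2 scale (edgeR adjusted p = 1.7e-18) and that of FOSB by 1.39 ± 0.083 (edgeR adjusted p = 1.7e-40). Both passed the 1.5-fold floor, which 0.846% of genes did. JUN followed at 0.57 ± 0.084 (edgeR adjusted p = 9.5e-10), and the rise of BATF was smaller in GFP-low cells, at -0.59 ± 0.12 (edgeR adjusted p = 5.2e-06). In this sense FOS, FOSB, JUN and BATF each changed more with FX1 in GFP-high cells. JUND stood at 0.42 ± 0.049 (edgeR adjusted p = 2.8e-14) and JUNB at 0.24 ± 0.05 (edgeR adjusted p = 2.9e-05), and with the trend removed at 0.17 and 0.02, the last no longer called. ATF3 (0.12 ± 0.24) and FOSL2 (-0.29 ± 0.4) did not pass. With the trend removed 5 members passed, against 27.7% of genes. The comparisons share libraries, so the values of a member across them are not independent.

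The genes around the members' pathway were taken from 7 lists with 121 entries, and their counts of calls are to be read beside the 33.7% of all genes called higher and 34.3% lower in GFP-low cells and the 33.8% higher and 34.6% lower in GFP-high cells. Of other bZIP factors that can pair with AP-1 proteins, 15 of 20 were tested, and with FX1 6 rose and 3 fell in GFP-low cells and 5 rose and 5 fell in GFP-high cells. MAFG, a small Maf protein that pairs with CNC-type bZIP factors, rose by 1.0 ± 0.046 in GFP-low and 0.85 ± 0.048 in GFP-high cells. Its relative MAFK rose by 0.72 in GFP-low and by 0.59 in GFP-high cells, or by 0.28 in GFP-low and 0.33 in GFP-high cells with the trend removed. CREB5, a CRE-binding factor, averaged 22.7 ± 0.807 CPM in GFP-low FX1 and 36.4 ± 2.0 CPM in GFP-low DMSO, and 36.1 ± 0.382 CPM in GFP-high FX1 and 36.6 ± 1.17 CPM in GFP-high DMSO, and fell by 0.69 ± 0.051 in GFP-low cells. The difference of its FX1 effect between gates was -0.67 ± 0.07 (edgeR adjusted p = 2.2e-17). BATF3 and FOSL1 were too low to test. The median change of this list was 0.09 in GFP-low and -0.02 in GFP-high cells, against -0.01 over all genes. Removing the trend gave 6 higher and 6 lower in GFP-low cells, where the median turned to -0.14, and 5 higher and 5 lower in GFP-high cells, with a median of -0.04.

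The kinases that feed AP-1 (the ERK, JNK and p38 cascades) were all 23 tested, and 8 rose and 9 fell in GFP-low cells and 12 rose and 5 fell in GFP-high cells, with medians of 0.01 in GFP-low and 0.09 in GFP-high cells. With the trend removed 8 were higher and 9 lower in GFP-low cells, with a median of -0.03, and 9 were higher and 7 lower in GFP-high cells, with a median of 0.04. In GFP-high cells the filter of 50 counts gave 9 higher and 8 lower kinases, and no filter 11 higher and 3 lower. RPS6KA1, an ERK-activated ribosomal S6 kinase, rose by 0.88 ± 0.023 in GFP-low and 1.0 ± 0.024 in GFP-high cells. MAP2K3, a kinase of p38, rose by 0.83 in GFP-low and by 0.75 in GFP-high cells (0.55 in GFP-low and 0.61 in GFP-high cells with the trend removed). MAPK10, a JNK, fell by 0.83 ± 0.034 in GFP-low cells. In GFP-high cells MAPK10 averaged 73.0 ± 1.15 CPM with FX1 and 95.5 ± 0.233 with DMSO. MAPK3, an ERK, had a log2 difference of -0.47 ± 0.052 in GFP-high cells, and of -0.66 with the trend removed. In GFP-low cells MAPK3 averaged 30.7 ± 2.62 CPM with FX1 and 38.7 ± 0.353 with DMSO. Of 16 transcription factors that act on the FOS and JUN promoters, 7 rose and 7 fell in GFP-low cells and 9 rose and 4 fell in GFP-high cells. SRF, which binds the CArG box, rose by 0.76 ± 0.034 in GFP-low and 0.59 ± 0.036 in GFP-high cells, or by 0.36 in GFP-low and 0.34 in GFP-high cells with the trend removed. MEF2C fell by 0.83 ± 0.02 in GFP-low cells, and in GFP-high cells it averaged 188 ± 2.55 CPM with FX1 and 256 ± 0.718 with DMSO. The median change of these factors was 0.09 in GFP-low and 0.15 in GFP-high cells. Without the trend 6 were higher and 5 lower in GFP-low cells and 7 higher and 6 lower in GFP-high cells, with medians of 0.03 in GFP-low and 0.04 in GFP-high cells.

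Other targets of the serum response and ternary complex factors, the pathway best known for inducing FOS, were counted in the same way. Of 19 genes 14 were tested, and with FX1 7 fell and 5 rose in GFP-low cells and 9 fell and 4 rose in GFP-high cells, with medians of -0.28 in GFP-low and -0.62 in GFP-high cells. Without the trend 8 were lower and 5 higher in GFP-low cells and 9 lower and 4 higher in GFP-high cells, with medians of -0.44 in GFP-low and -0.68 in GFP-high cells. EGR1, an immediate early zinc finger factor, averaged 14.1 CPM in GFP-low FX1 and 66.9 in GFP-low DMSO, and 16.5 CPM in GFP-high FX1 and 101 in GFP-high DMSO. It fell by 2.24 ± 0.048 in GFP-low cells (edgeR adjusted p = 4e-121) and fell by 2.61 ± 0.044 in GFP-high cells (edgeR adjusted p = 3.9e-144). DUSP1, a phosphatase of the MAP kinases, fell by 1.94 ± 0.089 in GFP-low and fell by 2.25 ± 0.087 in GFP-high cells. DUSP5, an ERK phosphatase, went the other way, rising by 1.46 ± 0.034 in GFP-low and by 1.77 ± 0.038 in GFP-high cells. In the difference between gates 9 of the 14 were called positive and 1 negative, against 14.8% positive and 16.5% negative over all genes, and with the trend removed 7 were positive and 1 negative. EGR1 was among the positive ones at 0.38 ± 0.07 (edgeR adjusted p = 1.4e-06).

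The genes that limit AP-1 RNA and protein, 15 RNA decay and ubiquitin ligase genes, fell in 10 and rose in 4 cases in GFP-low cells and fell in 8 and rose in 6 in GFP-high cells, with medians of -0.13 in GFP-low and -0.11 in GFP-high cells. Once the trend was removed, 8 were lower and 4 higher in GFP-low cells and 7 lower and 6 higher in GFP-high cells, with medians of -0.04 in GFP-low and -0.08 in GFP-high cells. ZFP36L1, which binds AU-rich elements and promotes decay, fell by 0.71 ± 0.02 in GFP-low and fell by 0.48 ± 0.019 in GFP-high cells. ZFP36 fell by 0.65 ± 0.047 in GFP-high cells, and in GFP-low cells it averaged 31.4 ± 0.762 CPM with FX1 and 37.3 ± 2.13 with DMSO. BTG1 fell by 0.84 ± 0.03 in GFP-low and fell by 0.5 ± 0.029 in GFP-high cells, whereas BTG2, of the same antiproliferative family, rose by 0.8 ± 0.018 in GFP-low cells. In GFP-high cells BTG2 averaged 294 ± 3.7 CPM with FX1 and 245 ± 6.78 with DMSO. Of 20 textbook AP-1 targets, many of them genes of other tissues, only 7 were tested. Of these, 4 rose and 2 fell in GFP-low cells and 3 rose and 3 fell in GFP-high cells, and EZR, a linker of membrane and actin, rose by 0.33 ± 0.014 in GFP-low and by 0.11 ± 0.015 in GFP-high cells. The median change was 0.33 in GFP-low and -0.41 in GFP-high cells, and with the trend removed the counts were equal to these and the medians 0.25 in GFP-low and -0.45 in GFP-high cells.

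Of 8 partners of BATF and regulators of class switching, 3 rose and 3 fell in GFP-low cells and 4 rose and 3 fell in GFP-high cells, with medians of 0.05 in GFP-low and 0.25 in GFP-high cells. With the trend removed 4 rose and 4 fell in GFP-low cells and 4 rose and 3 fell in GFP-high cells, with medians of 0.06 in GFP-low and 0.27 in GFP-high cells. IRF4, with which BATF binds composite DNA sites, averaged 3.3 CPM in GFP-low FX1 and 15.7 in GFP-low DMSO, and 4.23 CPM in GFP-high FX1 and 11.3 in GFP-high DMSO. It fell by 2.28 ± 0.1 in GFP-low cells (edgeR adjusted p = 1.4e-56) and fell by 1.44 ± 0.1 in GFP-high cells (edgeR adjusted p = 5.6e-31), the opposite direction to BATF. IRF8, the other such partner, was more abundant and close to level between treatments. It averaged 131 ± 2.18 CPM in GFP-low FX1, 129 ± 1.74 in GFP-low DMSO, 174 ± 4.71 in GFP-high FX1 and 171 ± 2.8 in GFP-high DMSO. PRDM1, which encodes the plasma cell factor Blimp-1, rose by 1.7 ± 0.034 in GFP-low and by 2.04 ± 0.042 in GFP-high cells, and SPIB, an ETS factor of B cells, by 0.93 ± 0.032 in GFP-low and 1.33 ± 0.032 in GFP-high cells. BCL6, the target of FX1, averaged 218 ± 7.52 CPM in GFP-low FX1 and 339 ± 8.87 in GFP-low DMSO, and 199 ± 3.63 CPM in GFP-high FX1 and 400 ± 1.07 in GFP-high DMSO (SD, n = 3 each).

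For each member the 3 protein-coding genes with the most similar profile over the 12 libraries were found by the root-mean-square difference of centred log2 CPM, as a description with no test. FOS and FOSB were nearest to each other, at 0.112 with Pearson's r of 0.999. Next for FOS were LRRC32 at 0.397 and PFKFB4 at 0.418, and next for FOSB were PFKFB4 at 0.384 and LRRC32 at 0.45. FOSL2 was nearest to ELAVL2 at 0.243, COL19A1 at 0.247 and VAMP4 at 0.252. JUN was nearest to TMEM107 at 0.138, DACT3 at 0.139 and DYNLT2 at 0.154. JUNB was nearest to PRDX5 at 0.0493, QSOX2 at 0.0494 and PANK4 at 0.0521, and JUND to SAFB2 at 0.0514, NOP56 at 0.0547 and TPP1 at 0.0597. ATF3 was nearest to DEPDC1B at 0.18, MMAB at 0.19 and SESTD1 at 0.191, and BATF to SLAMF7 at 0.131 and FTH1 at 0.16. After removal of the GC and length trend, 2 of the 3 genes nearest to FOS, 3 of those nearest to FOSB, 1 of those nearest to JUN and 0 of those nearest to the other 5 members were the same.

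FOS and BATF lie 244 kb apart on chromosome 14, and the genes between them were looked at after the values were seen. LINC01220, a long noncoding RNA that begins 15.6 kb from the FOS start, had 9, 9 and 3 reads in GFP-low FX1 libraries, against 55, 73 and 63 in GFP-low DMSO, and 7, 4 and 7 reads in GFP-high FX1, against 33, 60 and 38 in GFP-high DMSO. It fell by 3.36 ± 0.32 in GFP-low cells (edgeR adjusted p = 8.2e-21) and fell by 3.18 ± 0.34 in GFP-high cells (edgeR adjusted p = 5.7e-17). DPPA5P4, a processed pseudogene 13.3 kb from the FOS start, had 0 reads in all 6 FX1 libraries, against 10, 22 and 13 in GFP-low DMSO and 14, 20 and 13 in GFP-high DMSO. JDP2, a bZIP factor that pairs with JUN proteins and starts 149 kb from FOS, differed by -0.33 ± 0.33 in GFP-low cells (edgeR adjusted p = 0.38) and by -0.2 ± 0.36 in GFP-high cells (edgeR adjusted p = 0.64).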

How the data were processed

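Total RNA of Raji cells, depleted of ribosomal RNA, was sequenced as 12 libraries, per the labels' protocols. FastQC, STAR, featureCounts (Subread), R 4.2.1 and the build hg38 are named in the submitters' processing notes; versions of the aligner and counter, the annotation and the strand setting are not given in the sources used here, so overlapping and antisense genes are uncertain. The authors deposited raw counts per gene over combined exons, per the file headers. Of 60710 lines, 3 that formed 1 broken gene record were left out. Total counts lay between 20454028 and 42556661 per library, and they count reads, not molecules.

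The filter filterByExpr kept 17859 genes. Libraries were scaled by TMM, and a quasi-likelihood model with a term per group was fitted to all 12 with edgeR 4.0.16 in R 4.3.3 (8 residual degrees of freedom). P-values were adjusted by Benjamini-Hochberg over all genes tested, with a threshold of 0.05, and glmTreat gave a second call at a floor of 1.5-fold. Changes are given as log2 values ± SE, levels as TMM-scaled CPM. The procedure was also run on simulated counts, with known changes for some genes in GFP-low FX1 only. That setting differs from the real libraries, where most genes were called with FX1, and it does not test the GC trend.

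Alternatives were scaling by size factors, the test of DESeq2 1.42.0, no filter, a minimum of 50 counts in 3 libraries, a fit to the compared groups alone, a block on the replicate number, removal of a smooth GC and length trend (mgcv 1.9.3, 17557 genes), that removal with the block, scaling without mitochondrial and dominant genes (over 1% of a library), leaving out each library and, for shares, no scaling by length. Members, lists and motifs were chosen with earlier results of these data known. The rule for named genes takes all members, the 3 most similar genes of each, up to 3 called genes with the largest change per list and comparison at a mean log2 CPM of at least 2, and SMARCA4 and BCL6. Of the list genes only examples are printed, and 1 gene nearest to a member is not reported here. Genes near FOS, HOOK2 and the low bZIP genes were added after their values were seen.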

Additional observations from a re-analysis of the deposited data

Results flagged for a closer look

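The effect of FX1 differed between the gates for 6 AP-1 members in a direct test of the difference (GFP-low minus GFP-high, log2 scale, edgeR interaction term, n = 3 libraries per group). The differences were 1.23 for FOS, 1.39 for FOSB, 0.57 for JUN, 0.24 for JUNB, 0.42 for JUND and -0.59 for BATF. FOS, FOSB and JUN fell in both gates and BATF rose in both, each by more in GFP-high cells. After removal of the GC and length trend the difference was 0.02 for JUNB and 0.17 for JUND, and the JUNB call was lost.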

How the results depend on the processing

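The falls of FOS, FOSB, JUN and ATF3 and the rise of BATF with FX1 kept their direction and call in both gates under every alternative run, and all counts of members called stayed within 6 to 8 for FX1 in GFP-low cells, 6 to 7 for FX1 in GFP-high cells, 4 to 5 between gates under DMSO, 5 to 6 between gates under FX1 and 5 to 6 for the difference. Of 827 member values under alternatives, 789 kept direction and side of the threshold and 22 changed sign. Of those that kept their sign, 8 gained and 8 lost a call. Some values that changed sign also gained a call, as JUNB did between gates under DMSO with the trend removed. Among counts of calls in lists, 1389 were within 1.5 times of the reported value and 67 were not. FOSL2, with 16 to 45 reads per library, is limited by depth, and the filter of 50 counts removed it.

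With the GC and length trend removed, alone or with the replicate block, the sign changed for JUND with FX1 in GFP-low cells (-0.17), for JUNB (-0.15) and BATF (-0.1) between gates under DMSO, and for JUNB (-0.14, and -0.13 with the block), JUND (-0.44), ATF3 (0.04, and 0.02 with the block) and HNRNPD (0.05) between gates under FX1. The cause was not tested. ATF3 between gates under FX1 was at 0.02 with the filter of 50 counts, which also called JUND with FX1 in GFP-high cells (-0.08, edgeR adjusted p = 0.028). JUND between gates under FX1 lost its call with only the compared groups fitted (edgeR adjusted p = 0.06) and with mitochondrial and dominant genes left out of scaling (edgeR adjusted p = 0.05, at the threshold). Leaving out 1 library at a time gave values of either sign for FOSL2 with FX1 in GFP-high cells (-0.45 to 0.02) and between gates under DMSO (-0.12 to 0.36, with a further value below 0 at -0.11) and FX1 (-0.42 to 0.08, with a further value above 0 at 0.01), for ATF3 between gates under FX1 (-0.3 to 0.15, with a further value above 0 at 0.12) and in the difference (-0.15 to 0.3), and for JUNB with FX1 in GFP-low cells (-0.07 to 0.0).

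With no scaling by length, the FOS subfamily took 8.25% in GFP-low FX1, 48.8% in GFP-low DMSO, 5.74% in GFP-high FX1 and 56.1% in GFP-high DMSO. The JUN subfamily took 81.0% in GFP-low FX1, 47.9% in GFP-low DMSO, 77.9% in GFP-high FX1 and 41.4% in GFP-high DMSO. ATF3 with BATF took 10.8% in GFP-low FX1, 3.26% in GFP-low DMSO, 16.4% in GFP-high FX1 and 2.54% in GFP-high DMSO. Leaving out 1 library gave FOS subfamily shares per kilobase of 3.2% to 3.48% in GFP-low FX1 and 30.2% to 30.6% in GFP-low DMSO. In GFP-high cells they were 2.07% to 2.27% with FX1 and 37.4% to 37.6% with DMSO. With 3 libraries such a shift is always smaller than the SD, so these ranges are only a description.

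No pairing by replicate number was seen: over 10467 genes, 18 pairs with the same number had correlations of -0.037 to 0.018, and 36 with different numbers -0.031 to 0.035. Such values cannot exclude that libraries of the same number shared a culture, and the labels do not say what the number marks. With the replicate number as a block, 6 of 8 members were called for FX1 in each gate, and no call of a member changed.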
